A study of Mus musculus with 4 samples.

Results

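The genes described here were *Cdkn1a*, *Wee1*, *Ccnd1*, *Ccng1*, *Mdm2*, *Gadd45a*, *Gadd45b*, *Gadd45g*, *Myc* and *Btg2*, a set of p53 targets, GADD45 family members and cell cycle genes tied to the circadian clock. They were taken by symbol from the deposited table of TPM (an RNA level corrected for transcript length and scaled to the same total in each library), and all 10 were found among its 35739 genes. RNA-seq had been made from the livers of mice with an intact *Usp21* gene (WT, replicates 2 and 3) and of mice lacking it in every tissue (KO, replicates 1 and 3), and the comparison asked how loss of *Usp21*, which encodes a deubiquitinating enzyme, altered hepatic transcripts. The locus had been targeted with loxP sites in 129/Sv embryonic stem cells, which were injected into C57BL/6 blastocysts, and exons 3 and 4 were later removed by crossing to mice that express Cre, which leaves an early stop codon in exon 5. WT and KO mice were littermates of a mixed B6 × 129/Sv background, aged 10 to 11 weeks, fed a normal diet and kept under 12 h of light and 12 h of darkness. The hour at which the livers were taken and the sex of the mice are not given in the sources used here, and RNA came from whole liver, so that fewer cells of a type and less RNA per cell cannot be told apart.

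The transcription factor p53 is stabilised by damage and other stress and switches on inhibitors of the cell cycle, DNA repair factors, and its own antagonist MDM2. The GADD45 proteins are small stress sensors that bind cyclin-dependent kinases and the kinase MAP3K4. In liver the circadian clock also gates cell division: CLOCK and BMAL1 drive *Wee1*, a brake on mitotic entry, through E-box sequences, and the clock repressors NR1D1 and NR1D2 act on *Cdkn1a*.

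The sequences that follow are the stretches of member promoters that held the spaced p53 core, the E-box or the CRE, and they show which of these known inputs can be read in the letters themselves. RefSeq promoter windows of GRCm38.p6, reaching from 250 bases before to 50 bases after an annotated start, were matched for 7 of the 10 genes and gave 8 windows, since *Cdkn1a* has 2 annotated starts 2790 bases apart. Each line holds 30 bases of the gene's own strand, 5′ to 3′, with the matched letters in capitals.
Cdkn1a, chr17:29090923-29090952, plus strand: ttcaggaaCATGTCTTGACATGttcagccc
Gadd45b, chr10:80929894-80929923, plus strand: agccctgaccccCACGTGgggccgccggag
Gadd45g, chr13:51846521-51846550, plus strand: cgcacccctcccCACGTGgccttctggcac
Btg2, chr1:134079303-134079332, minus strand: gttcccaataaTGACGTCAgtgagcgatga
The *Cdkn1a* stretch lay before the more upstream of its starts, with a pair of CATG tetramers separated by 6 bases at 48 to 35 bases upstream. Its letters matched 19 of the 20 positions of the p53 consensus, and 0.712% of all 32851 promoter windows held such a pair on either strand. The E-box CACGTG, the letters bound by CLOCK and BMAL1 and also by MYC and MAX, stood 185 to 180 bases upstream of *Gadd45b* and 142 to 137 bases upstream of *Gadd45g*, and was present in 7.15% of all windows. The cyclic AMP response element (CRE) TGACGTCA stood 166 to 159 bases upstream of *Btg2* and was present in 1.79% of all windows. Of the other letters searched on both strands, CACGTT (4.68% of all windows), TTANGTAA (2.32%) and TAGGTCA (2.61%) had 0 matches in the 8 member windows, and the looser pair of CNNG tetramers with 6 bases between them was in 8 of 8 but also in 70.2% of all windows. *Wee1*, *Ccnd1* and *Myc* were not matched.

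Hepatocyte markers were present in all 4 libraries, the summed TPM of 7 such genes including *Alb*, which encodes serum albumin, running from 48469 to 70327. *Usp21* itself had 4.07 and 6.29 TPM in WT 2 and WT 3, against 1.64 and 2.93 in KO 1 and KO 3, a log2 fold change of -0.92 (SE 0.33, limma adjusted p = 0.464), and the gene-level value also takes in exons that the allele retains. TPM keep no record of depth. The separately deposited count-based table corresponded to 102898 to 148164 reads per library, and it held a read for 3 of the 10 genes. Its reads did not follow TPM. The reference gene *Gapdh*, at 899 to 1115 TPM, had 0 reads in all 4 libraries, while *Cdk4*, at 29.6 to 42.0 TPM, had 446 to 712. A missing or small count there is therefore a weak check on TPM. In a limma fit of log2(TPM + 1) across 9581 genes, those averaging 1 TPM or more, 8 genes had an adjusted p under 0.05, which is 0.0835% of those tested.

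All 10 genes passed the mean of 1 TPM, *Wee1* mainly through its WT libraries, *Gadd45b* mainly through WT 3. None of the 10 had an adjusted p under 0.05 with limma and Benjamini-Hochberg adjustment, and 2 had an unadjusted p under 0.05, *Cdkn1a* on the higher side in KO, where 8.45% of tested genes stood, and *Wee1* on the lower side, where 2.04% stood. With edgeR and DESeq2, which could be run only on the 3 genes with a read, 0 of the 3 had an unadjusted p under 0.05. *Wee1* had 1 read over the 4 libraries (in WT 3) and *Gadd45a* 1 (in WT 2), too few for either test to return a small p. By size, *Cdkn1a* and *Gadd45g* were at least 2-fold higher in KO (2.59% of tested genes) and *Wee1* at least 2-fold lower (1.1%), on the log2(TPM + 1) scale, which understates the difference of genes at low TPM. The genes split into 5 with a higher and 5 with a lower KO mean, while 66.7% of all tested genes had a higher one, and their median log2 fold change was -0.14 beside 0.15 over all tested genes. Averaged over the 4 libraries, *Ccng1* (13.0 TPM) and *Gadd45g* (12.8 TPM) were the highest, *Cdkn1a* (6.43 TPM) and *Ccnd1* (6.09 TPM) came next, *Mdm2* (3.82 TPM), *Gadd45a* (3.26 TPM) and *Btg2* (3.24 TPM) followed, and *Myc* (1.76 TPM), *Wee1* (1.74 TPM) and *Gadd45b* (1.28 TPM) were the lowest. The 4 values of each gene overlapped those of its neighbours in that order.

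**Figure D1:**
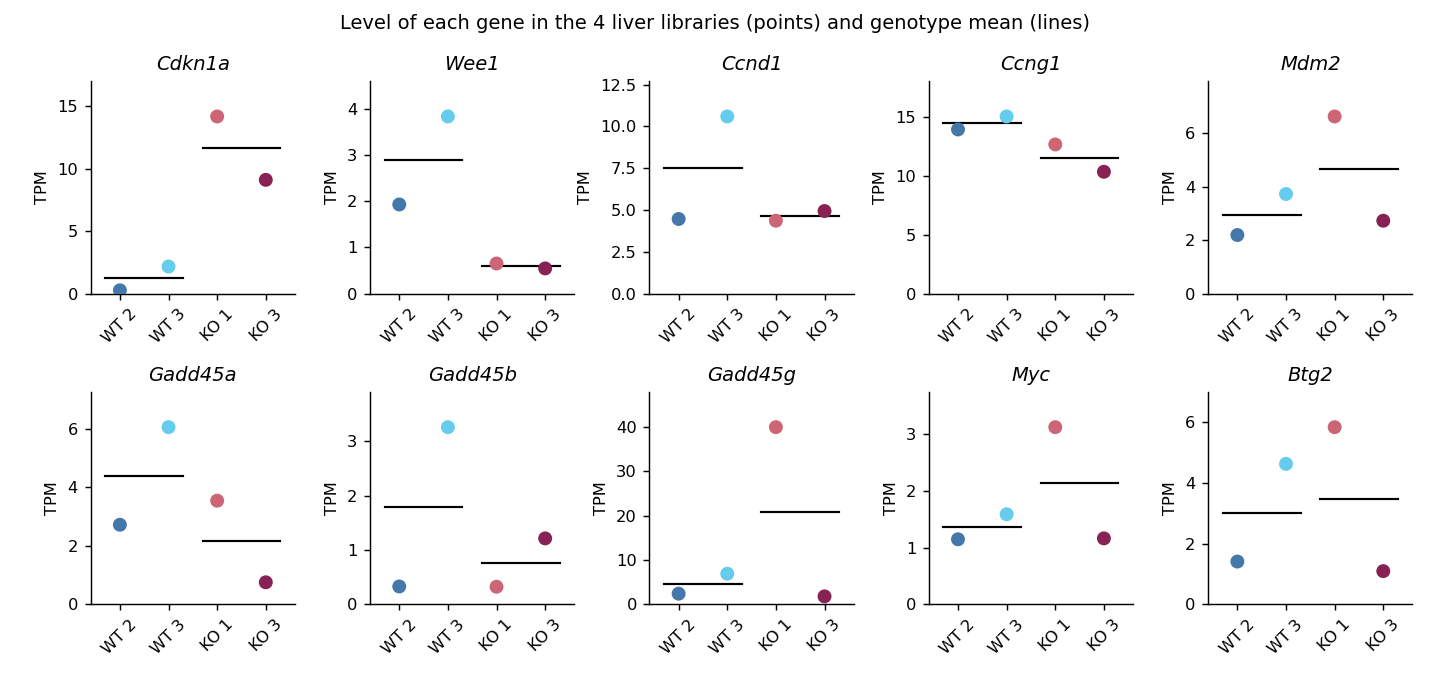
Level of each of the 10 genes in TPM (vertical axes, each starting at 0) in WT 2, WT 3, KO 1 and KO 3, with points for single libraries and a line for the mean of each genotype. For *Cdkn1a* both KO points (14.2 and 9.10 TPM) lie above both WT points, for *Wee1* and *Ccng1* both KO points lie below both WT points, and the genotypes overlap in the other 7 panels.

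*Cdkn1a* (ENSMUSG00000023067, chr17:29090976-29100727 of GRCm38, plus strand) encodes p21, the inhibitor of cyclin-dependent kinases that carries out much of the arrest ordered by p53. It had 0.266 and 2.17 TPM in WT 2 and WT 3, and 14.2 and 9.10 TPM in KO 1 and KO 3. Both KO livers were therefore above both WT livers, the lower KO value standing well clear of the higher WT value, although the WT values were themselves far apart. The means were 1.22 ± 1.35 TPM in WT and 11.6 ± 3.59 TPM in KO (SD, n = 2 each), a ratio of 9.56. On the log2(TPM + 1) scale the difference was 2.63 (SE 0.49, 95% interval 1.41 to 3.84), with an unadjusted limma p of 0.00207 and a Benjamini-Hochberg adjusted p of 0.373. Among the 9581 tested genes this p ranked 52 from the smallest and this log2 fold change 17 from the highest. The difference was 1.97 without WT 2 and 3.29 without WT 3, and the unadjusted p rose to 0.0682 when limma's sharing of variance across genes was turned off. Of the 31-base stretches of *Cdkn1a* transcripts, 9.78% also occurred in other annotated genes. Most of them lay in the overlapping antisense model AC167363.2, which has no entry among the TPM values. Only 3.21% occurred in other genes averaging 1 TPM or more. Whether strand was used in quantification is not stated.

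p21 shares its role with the other inhibitors of the CIP/KIP family, *Cdkn1b* (p27) and *Cdkn1c* (p57). *Cdkn1a* made up 3.78% and 26.3% of the summed TPM of the 3 genes in WT 2 and WT 3, and 60.2% and 60.7% in KO 1 and KO 3. *Cdkn1b*, which had 4.87, 4.16, 8.26 and 4.78 TPM in WT 2, WT 3, KO 1 and KO 3, was the largest contributor in both WT livers, and its log2 fold change was 0.41 (SE 0.30). *Trp53*, the gene for p53, had 7.08, 6.86, 8.08 and 6.09 TPM in the same order, a log2 fold change of 0.01 (SE 0.23).

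*Wee1* (ENSMUSG00000031016, chr7:110122046-110143286, plus strand) encodes the kinase that holds CDK1 inactive until mitosis. Its TPM were 1.93 and 3.83 in WT 2 and WT 3, against 0.653 and 0.546 in KO 1 and KO 3. The KO livers were close to each other and both below both WT livers. The means were 2.88 ± 1.35 TPM in WT and 0.599 ± 0.0756 TPM in KO (SD, n = 2 each), a ratio of 0.208. The log2 fold change was -1.24 (SE 0.33, 95% interval -2.06 to -0.41), with an unadjusted limma p of 0.0112 and an adjusted p of 0.464, and ranked 67 from the lowest of the tested genes. It was -0.87 without WT 3, with an unadjusted limma p of 0.0627, and -1.19 without KO 3, with one of 0.0501, so the unadjusted p crossed 0.05 on the loss of either library. *Pkmyt1*, the relative of *Wee1* that also phosphorylates CDK1, was at 0 TPM in WT 2 and WT 3 and at 0.546 and 0.114 TPM in KO 1 and KO 3, below the minimum for testing.

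The ratio of *Cdkn1a* to *Wee1*, looked at after the values of both had been seen, was 0.138 and 0.566 in WT 2 and WT 3 and 21.7 and 16.7 in KO 1 and KO 3. *Wee1* was thus the more abundant of these brakes in both WT livers and *Cdkn1a* in both KO livers, each level being per unit of transcript length.

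Known clock outputs and regulators are given beside them, since the pair is under clock control. *Dbp*, an output of CLOCK and BMAL1 through E-boxes, had 56.8 and 41.3 TPM in WT, against 4.73 and 4.97 in KO, and fell with a log2 fold change of -3.08 (SE 0.23, limma adjusted p = 0.0193). The count-based table had the opposite order for *Dbp*, with 2 and 1 reads in WT 2 and WT 3 and 7 and 3 reads in KO 1 and KO 3. *Bmal1* had 0.241 and 0.243 TPM in WT, against 5.89 and 4.05 in KO (log2 fold change 2.25, SE 0.28, limma adjusted p = 0.154). *Ciart*, a repressor of the clock named for its small unadjusted p, had 5.70 and 5.61 TPM in WT, against 0.301 and 0.194 in KO (log2 fold change -2.42, limma adjusted p = 0.089). *Bmal1* passed the mean of 1 TPM only through its KO libraries and *Ciart* only through its WT libraries. Both are in the counts of the core clock list below. In *Per1*, a light- and clock-induced repressor, the log2 fold change was -0.86 (limma adjusted p = 0.464), while *Per2* was at 0.427, 1.12, 0.467 and 0.644 TPM and *Nr1d1* at 33.9, 9.92, 25.1 and 26.9 TPM in WT 2, WT 3, KO 1 and KO 3, with overlapping genotypes. Of 15 tested genes of the core clock list, 3 had an unadjusted p under 0.05 on the higher side (8.45% of all tested genes) and 7 on the lower side (2.04%). This list was chosen with earlier results of these data known, so the counts are not a test. Their part in the values of *Wee1* and *Cdkn1a* was not tested, and a difference in circadian time between the mice cannot be told apart from a difference between genotypes without the hour of sampling.

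*Mdm2* (ENSMUSG00000020184, chr10:117688875-117710758, minus strand), the ubiquitin ligase that p53 induces and that degrades p53, had 2.20 and 3.73 TPM in WT, against 6.64 and 2.73 in KO. Only KO 1 lay above both WT livers, KO 3 falling between them. Between genotypes the log2 fold change was 0.46 (SE 0.42, 95% interval -0.59 to 1.50, limma adjusted p = 0.692), and it was -0.06 without KO 1. Its partner *Mdm4* had 1.37 and 1.28 TPM in WT, against 3.07 and 1.83 in KO, a log2 fold change of 0.54 (limma adjusted p = 0.524) with both KO livers above both WT livers.

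*Ccng1* (ENSMUSG00000020326, chr11:40748552-40755311, minus strand), the p53 target that encodes cyclin G1, was the steadiest of the genes. It had 14.0 and 15.1 TPM in WT, against 12.7 and 10.4 in KO, means of 14.5 ± 0.781 and 11.5 ± 1.65 TPM (SD, n = 2 each). Both KO livers were below both WT livers, but by little. This corresponded to a log2 fold change of -0.31 (SE 0.21, 95% interval -0.82 to 0.20, limma adjusted p = 0.584). *Ccng2*, which encodes the related cyclin G2 and is known as a FOXO target rather than a classical p53 target, had 2.38 and 3.90 TPM in WT, against 6.07 and 7.16 in KO, a log2 fold change of 0.90 (SE 0.28, limma adjusted p = 0.464). Cyclin G2 thus took 14.6% and 20.6% of the summed TPM of both G cyclins in WT and 32.3% and 40.8% in KO, while the sum stayed between 16.4 and 19.0 TPM.

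The p53 targets *Cdkn1a*, *Mdm2*, *Ccng1*, *Gadd45a* and *Btg2* had log2 fold changes of 2.63, 0.46, -0.31, -0.86 and 0.04. Groups that did not overlap were common on the higher side in these libraries (34.4% of tested genes) and less so on the lower side (10.9%), against 1 of the 10 genes (*Cdkn1a*) and 2 of the 10 (*Wee1* and *Ccng1*). Of 39 other p53 pathway genes, 25 were tested, of which 19 had a higher KO mean (66.7% of all tested genes) and 6 a lower one, 2 had an unadjusted limma p under 0.05 (*Ccng2* and *Slc19a2*, a thiamine transporter, log2 fold change 0.61, both on the higher side, where 8.45% of all tested genes stood) and 0 an adjusted p under 0.05. The list includes *Ccng2* although, as said above, it is not known as a classical p53 target. The median log2 fold change of the 25 genes was 0.13, beside 0.15 over all tested genes.

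*Ccnd1* (ENSMUSG00000070348, chr7:144929931-144939925, minus strand) encodes cyclin D1, which opens the G1 phase with CDK4 and CDK6. It had 4.47 and 10.6 TPM in WT, against 4.36 and 4.94 in KO. WT 3 alone was high, and WT 2 stood level with both KO livers. The log2 fold change of -0.50 (SE 0.39, 95% interval -1.47 to 0.48, limma adjusted p = 0.643) was 0.05 without WT 3. The count-based table gave the opposite order in WT, with 7 reads in WT 2, 1 in WT 3, 7 in KO 1 and 2 in KO 3, and a log2 fold change of 0.37. Of the 31-base stretches of *Ccnd1* transcripts, 22.3% also lie in *LTO1*, which overlaps it on the opposite strand and had 5.50, 1.93, 3.02 and 3.25 TPM in WT 2, WT 3, KO 1 and KO 3, so reads of this gene and its antisense partner may not have been told apart.

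*Ccnd3*, which encodes cyclin D3, was the main D cyclin in these livers. It had 13.5 and 11.9 TPM in WT, against 15.6 and 16.7 in KO (log2 fold change 0.33, SE 0.19), and *Ccnd2* had 1.31 and 1.43 TPM in WT, against 1.01 and 1.13 in KO. *Ccnd1* made up 23.2%, 44.4%, 20.8% and 21.7% of the summed D cyclins in WT 2, WT 3, KO 1 and KO 3, and the sum itself ranged from 19.2 to 23.9 TPM.

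**Figure D2:**
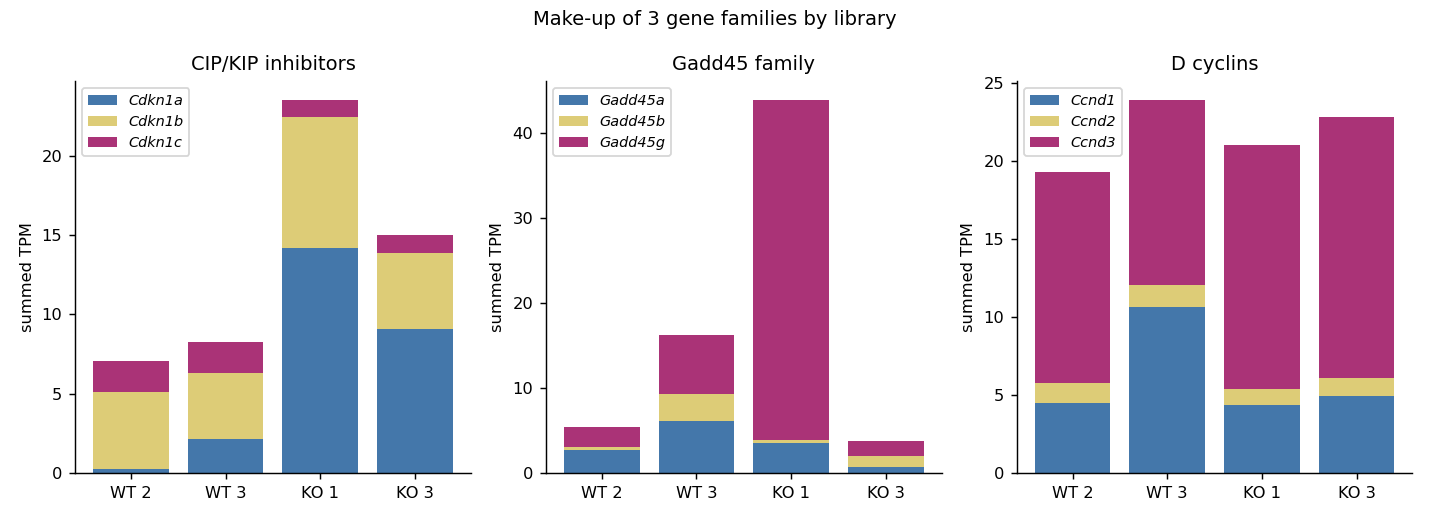
Summed TPM (vertical axes, starting at 0) of the CIP/KIP inhibitors, the *Gadd45* family and the D cyclins in each library, each bar divided by gene. *Cdkn1a* makes up about 60% of the CIP/KIP bar in both KO livers (60.2% and 60.7%), *Gadd45g* fills 91.2% of the KO 1 bar of its family, and *Ccnd1* takes its largest share of the D cyclins (44.4%) in WT 3.

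*Myc* (ENSMUSG00000022346, chr15:61985391-61990374, plus strand), the growth-promoting transcription factor that represses *Cdkn1a*, was among the lowest of the genes with 1.15 and 1.59 TPM in WT, against 3.13 and 1.16 in KO. KO 1 was high and KO 3 was level with WT 2. The log2 fold change of 0.34 (SE 0.38, 95% interval -0.61 to 1.29, limma adjusted p = 0.746) was -0.12 without KO 1. *Max*, its obligate partner, had 9.58 and 8.07 TPM in WT, against 13.1 and 8.09 in KO. In the MYC network list, 6 of 10 tested genes had a higher KO mean (66.7% of all tested genes) and 4 a lower one, and 0 had an unadjusted or adjusted limma p under 0.05.

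*Gadd45g* (ENSMUSG00000021453, chr13:51846678-51848468, plus strand) had the widest range of the genes. Its TPM were 2.41 and 6.91 in WT and 40.0 and 1.80 in KO, so KO 1 held the highest and KO 3 the lowest of the 4 values. The KO mean of 20.9 ± 27.0 TPM (SD, n = 2) therefore describes neither liver, and the log2 fold change was 1.05 (SE 1.23, 95% interval -2.01 to 4.10, limma adjusted p = 0.759) with all libraries and -0.89 without KO 1.

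*Gadd45a* (ENSMUSG00000036390, chr6:67035096-67037457, minus strand), the member of the family best known as a p53 target, had 2.72 and 6.05 TPM in WT, against 3.54 and 0.752 in KO. KO 1 fell between the WT livers and KO 3 below both. The log2 fold change was -0.86 (SE 0.55, 95% interval -2.22 to 0.50, limma adjusted p = 0.577). It was -0.17 without KO 3, -0.40 without WT 3, -1.32 without WT 2 and -1.55 without KO 1. Its transcripts share 17.0% of their 31-base stretches with the overlapping antisense gene E230016M11Rik, which has no entry among the TPM values. They share 0.0% with other genes averaging 1 TPM or more.

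*Gadd45b* (ENSMUSG00000015312, chr10:80930073-80932204, plus strand), a target of NF-κB and TGF-β signalling, had 0.329 and 3.26 TPM in WT, against 0.324 and 1.21 in KO. WT 3 was the highest, and WT 2 and KO 1 were nearly equal. Its log2 fold change was -0.48 (SE 0.61, 95% interval -1.98 to 1.03, limma adjusted p = 0.779), and without WT 3 the gene no longer reached the mean of 1 TPM. It was -1.32 without WT 2, -0.85 without KO 3 and -0.10 without KO 1.

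Summed, the *Gadd45* family had 5.45, 16.2, 43.9 and 3.77 TPM in WT 2, WT 3, KO 1 and KO 3, and its make-up differed as much as its total. *Gadd45a* and *Gadd45g* had similar shares in WT 2 (49.8% and 44.1%) and WT 3 (37.3% and 42.6%), *Gadd45g* took 91.2% in KO 1, and *Gadd45b* had its largest share, 32.3%, in KO 3. *Map3k4*, whose kinase the GADD45 proteins activate, was at 3.01 and 1.55 TPM in WT, against 2.29 and 2.18 in KO, a log2 fold change of 0.02 (SE 0.31). *Map2k6*, the kinase that activates p38 downstream of it, had 3.43 and 3.72 TPM in WT, against 1.83 and 1.40 in KO, a log2 fold change of -0.81 (SE 0.25, limma adjusted p = 0.464). *Map2k6* was named for its small unadjusted p in a list of BTG/TOB relatives and GADD45 partners.

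*Btg2* (ENSMUSG00000020423, chr1:134075170-134079120, minus strand), an antiproliferative p53 target and immediate early gene that recruits the CCR4-NOT deadenylase to messenger RNA, had nearly equal genotype means and, on the log2(TPM + 1) scale, the most unequal livers within them after *Gadd45g*. It had 1.41 and 4.62 TPM in WT, against 5.83 and 1.09 in KO. Between genotypes the log2 fold change was 0.04 (SE 0.67, 95% interval -1.63 to 1.71, limma adjusted p = 0.985), and leaving out single libraries moved it from -0.81 (without KO 1) to 0.89 (without KO 3). Of its relatives, *Btg3* had 1.36 and 3.26 TPM in WT, against 8.47 and 5.51 in KO (log2 fold change 1.31, limma adjusted p = 0.464), *Btg1* had a log2 fold change of 0.29 (SE 0.20), and *Tob1* one of 0.59 (SE 0.37). *Cnot7*, the deadenylase subunit that BTG and TOB proteins bind, had 7.37 and 5.24 TPM in WT, against 11.7 and 10.5 in KO (log2 fold change 0.74, limma adjusted p = 0.464). Of the 14 tested BTG/TOB relatives and GADD45 partners, 11 had a higher KO mean (66.7% of all tested genes) and 3 a lower one, and 0 had an adjusted p under 0.05 with limma. *Btg3*, *Map2k6* and *Cnot7* were named for having the smallest unadjusted p of this list.

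**Figure D3:**
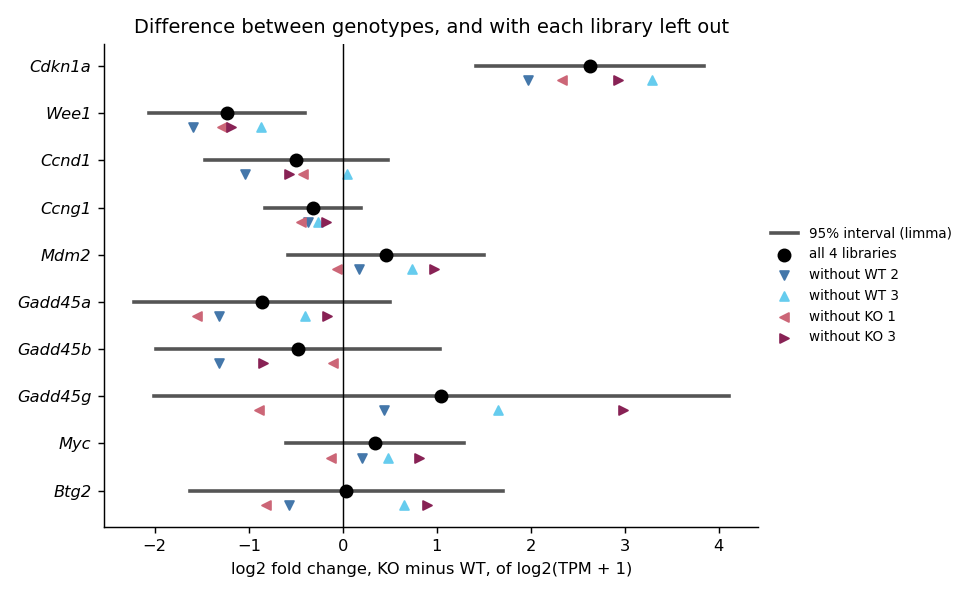
Difference in mean log2(TPM + 1), KO minus WT (horizontal axis), for each of the 10 genes, with the black point from all 4 libraries, a bar for its 95% interval in limma, and a triangle for the value with 1 library left out. The bars of *Cdkn1a* (1.41 to 3.84) and *Wee1* (-2.06 to -0.41) do not cross 0, and triangles lie on both sides of 0 for *Ccnd1*, *Mdm2*, *Gadd45g*, *Myc* and *Btg2*.

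In most of these genes, livers of a single genotype differed from each other by amounts as large as the genotypes did. In 7 of the 10 genes the larger of the within-genotype differences exceeded the difference between genotypes, the exceptions being *Cdkn1a*, *Wee1* and *Ccng1*. These 7 are the same genes whose genotypes overlap. The larger difference between single libraries was set here against a difference between genotype means. The share over all tested genes was not computed, so the count cannot be called particular to these genes. WT 3 was above WT 2 in 10 of 10 genes, compared with 49.9% of all tested genes, and by at least 2-fold in 5 of them, compared with 3.0%. These were *Cdkn1a* (1.32 on the log2 scale), *Ccnd1* (1.09), *Gadd45b* (1.68), *Gadd45g* (1.22) and *Btg2* (1.22). KO 1 was above KO 3 in 8 of 10 genes, compared with 64.6% of all tested genes, and by at least 2-fold in 4 of them, compared with 4.38%. Written as KO 3 minus KO 1, these differences were -3.87 for *Gadd45g*, -1.71 for *Btg2*, -1.37 for *Gadd45a* and -1.03 for *Mdm2*. The highest of the 4 values was in WT 3 for 5 genes and in KO 1 for the other 5, and in no gene in WT 2 or KO 3. These counts compare 1 library with 1 library and were made after the values had been seen.

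Immediate early and stress genes, a list that holds fast-induced transcription factors such as *Junb*, also differed between livers of a single genotype. WT 3 was above WT 2 in 11 of the 11 tested genes (median difference 1.02 on the log2 scale, beside 1.00 for the 10 genes described here and 0.00 for all tested genes), and the summed TPM of the list was 81.0 and 221 in WT 2 and WT 3 and 154 and 112 in KO 1 and KO 3. *Junb* had 6.76 and 55.6 TPM in WT, against 17.0 and 8.57 in KO. Summed TPM of 5 neutrophil markers was 4.19 and 46.2 in WT 2 and WT 3 and 4.97 and 2.22 in KO 1 and KO 3, WT 3 standing apart mainly through *S100a8* (29.1 TPM there). Of these 5 markers *Ly6g* was at 0 outside WT 3 and *Retnlg* at 0 in both KO livers. Summed TPM of 8 Kupffer cell markers, none at 0 in any library, was 176 and 202 in WT, against 94.5 and 243 in KO. Of these 8, 2 had a higher KO mean (66.7% of all tested genes) and 6 a lower one. Summed TPM of 6 cholangiocyte markers was 14.6 and 16.2 in WT, against 38.3 and 24.5 in KO, almost all of it *Spp1*, with *Cldn7* at 0 in WT 2 and KO 3 and *Krt7* at 0 in KO 3. Summed TPM of 7 stellate cell markers, none at 0, was 58.4 and 48.1 in WT, against 97.7 and 72.0 in KO. All 6 of those tested had a higher KO mean (66.7% of all tested genes), with a median log2 fold change of 0.55. Sinusoidal endothelial markers summed to 50.8 and 41.9 TPM in WT, against 47.2 and 62.5 in KO, so that KO 1 lay between the WT sums. All 7 had a higher KO mean (66.7% of all tested genes), with a median log2 fold change of 0.21 beside 0.15 over all tested genes. Lymphocyte markers summed to 2.54 to 4.08 TPM over the 4 libraries. The part of these cell types or of handling of the tissue in the values of the 10 genes was not tested.

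**Figure D4:**
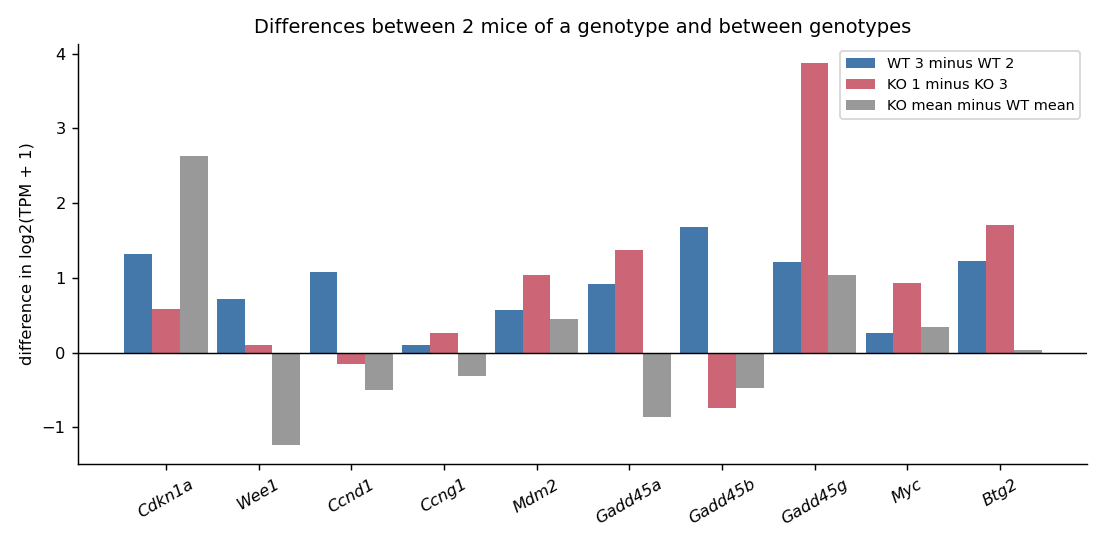
Differences in log2(TPM + 1) (vertical axis) for each of the 10 genes, with bars for WT 3 minus WT 2, for KO 1 minus KO 3 and for the KO mean minus the WT mean. All 10 WT bars are above 0, and the genotype bar is the longest of the trio for *Cdkn1a*, *Wee1* and *Ccng1*.

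No tested gene of the neighbouring cell cycle groups passed the test. Among other cyclins, cyclin-dependent kinases, their inhibitors and the CDC25 and WEE1 axis, 17 of 23 tested genes had a higher KO mean (66.7% of all tested genes) and 6 a lower one (median log2 fold change 0.25), and 0 had an unadjusted or adjusted limma p under 0.05. Of 22 replication and mitosis markers, a list that includes *Mki67* and *Top2a*, only 7 were expressed highly enough to be tested. Of these, 5 had a higher KO mean (66.7% of all tested genes) and 2 a lower one. Their median was 0.06, and 0 had a limma p under 0.05, adjusted or not. Among the lists the highest median was that of glucocorticoid and FOXO responsive genes, in which 14 of 16 genes had a higher KO mean (66.7% of all tested genes), 9 of them with an unadjusted limma p under 0.05 on the higher side (8.45% of all tested genes) and 0 with an adjusted p under 0.05. That median was 0.78, and it was 0.50 without WT 2 and 0.52 without KO 3. The summed TPM of the list was 1171 and 2637 in WT 2 and WT 3 and 2155 and 2169 in KO 1 and KO 3. By this sum WT 3 stood above both KO livers, and WT 3 was above WT 2 in 12 of the 16 genes (49.9% of all tested genes). The list was chosen with earlier results of these data known, so its counts are not a test. *Zbtb16*, a glucocorticoid-induced transcription factor, had 0.773 and 0.904 TPM in WT, against 4.61 and 2.83 in KO (log2 fold change 1.34, limma adjusted p = 0.443). *G6pc1*, the glucose-6-phosphatase of gluconeogenesis, had 22.4 and 31.6 TPM in WT, against 56.4 and 173 in KO (log2 fold change 1.85, SE 0.52, limma adjusted p = 0.464). Its KO livers stood 1.60 apart on the log2 scale. *Irs2*, an insulin receptor substrate, had 1.08 and 0.656 TPM in WT, against 2.16 and 3.09 in KO (log2 fold change 0.95, SE 0.29, limma adjusted p = 0.464). *Zbtb16*, *G6pc1* and *Irs2* were named for having the smallest unadjusted p of their list. Of these, *Zbtb16* and *Irs2* passed the mean of 1 TPM mainly through their KO libraries. In the immediate early list 6 of 11 genes had a higher KO mean (66.7% of all tested genes). *Dusp1*, a phosphatase of MAP kinases induced by stress and by glucocorticoids, was named for having the smallest unadjusted p of that list. It had both KO livers above both WT livers (log2 fold change 0.92, SE 0.27, limma adjusted p = 0.464).

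**Figure D5:**
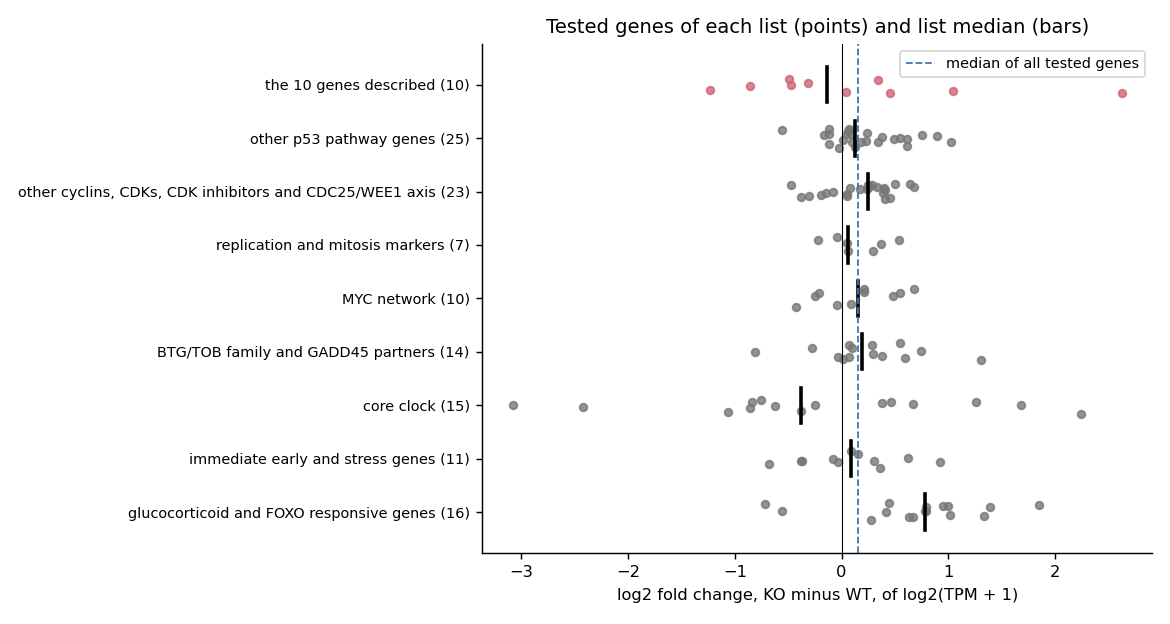
Log2 fold change, KO minus WT, of log2(TPM + 1) (horizontal axis) for every tested gene of each list, with the number of genes in parentheses, a black bar for the list's median and a dashed line for the median of all tested genes (0.15). The 10 genes spread from -1.24 to 2.63 around a median of -0.14, and the glucocorticoid and FOXO list has the highest median (0.78).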

How the data were processed

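RNA from 4 mouse livers (WT replicates 2 and 3, *Usp21* KO replicates 1 and 3) was sequenced on an Illumina MiSeq. The authors deposited TPM values from Salmon and, as a normalised signal per gene, CPM values scaled by the TMM method from HTSeq counts, with log2 tables that were not used here. Versions, annotation and strand settings are not given in the sources used here. Per the values, 100.0% of the CPM entries were whole reads within 0.02 reads, and 3 reads, the limit that a count of 0 allows (counting error only), stood for 20.0 to 27.7 CPM. Of 686 genes that reached 100 TPM in all libraries, 682 were in the CPM table and 428 of them had no read there, so TPM carried the main results. Columns were assigned by their labels, with 0 left unused.

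Genes averaging 1 TPM or more were fitted as log2(TPM + 1) with limma 3.58.1 (R 4.3.3, trended moderation, two-sided, Benjamini-Hochberg over all tested genes), after tests on simulated data. Replicates are taken as separate mice. The limma p-values set the KO minus WT difference against the spread within genotypes, moderated across genes. An exact permutation test of 2 against 2 cannot go below p = 0.333. Alternatives changed the pseudocount, filter, scaling, moderation, table and libraries. On the recovered reads, edgeR 4.0.16 called 12 genes and DESeq2 1.42.0 called 1 at an adjusted p under 0.05. The 10 genes were all named, with their closest relatives and partners, 5 clock genes, and up to 3 genes of each other list with the smallest unadjusted p under 0.05. Members and lists were chosen with earlier results of these data known. Gene positions are from GENCODE for GRCm38.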

Additional observations from a re-analysis of the deposited data

How the results depend on the processing

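No paired analysis was possible because the labels give neither litter nor any other pairing of WT with KO mice. With 2 libraries per genotype, the values are limited by the spread between mice, and a genotype left with 1 library is assumed to vary like the other.

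With limma, 8 genes had an adjusted p under 0.05. This count was 4 with no filter on low TPM, 0 with no moderation of variances, 1 on the CPM table, 1 with DESeq2 and 12 with edgeR, and from 0 to 7 when 1 library was left out. It was 0 among the 10 genes throughout. Of the 10 genes, those with an unadjusted p under 0.05 numbered 2, but 1 with a mean of at least 5 TPM (4 of the 10 tested), 0 with no moderation, 0 on the CPM table, with edgeR or with DESeq2 (3 of the 10 tested), and 1 to 4 with a library left out. Those at least 2-fold apart numbered 3, but 1 with a pseudocount of 5 and 2 to 5 with a library left out, and those without overlap 3, but 0 on the CPM table and 5 to 9 with a library left out, where 1 library makes overlap rarer. Their median log2 fold change of -0.14 ran from -0.47 to 0.48 over TPM with a library left out. Over the 3 genes with a read, it was -1.56 on the CPM table, -2.36 with edgeR and -1.52 with DESeq2. *Wee1* and *Gadd45a* had 1 read each over the 4 libraries, so the read-based results for them cannot decide a difference.

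Direction turned for *Btg2* (-0.0051 with a pseudocount of 0.1, -0.030 with upper quartile scaling, -0.81 to 0.89 with a library left out, being -0.57 without WT 2 and -0.81 without KO 1), *Ccnd1* (0.37 on the CPM table, 0.055 with edgeR, 0.052 with DESeq2, -1.04 to 0.047 with a library left out, the last without WT 3), and, without KO 1, for *Mdm2* (-0.060 to 0.97 over the libraries left out), *Gadd45g* (-0.89 to 2.98) and *Myc* (-0.12 to 0.81). The cause was not tested. *Cdkn1a* kept its direction in 10 alternatives (1.42 to 3.65) and *Wee1* in 9 on TPM (-2.02 to -0.48). Upper quartile scaling moved the median of all tested genes from 0.15 to 0.07.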
